A study of Mus musculus with 7 samples.

Results

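Ribosomal protein genes of the cytosolic ribosome were followed in RNA sequencing of granulosa cells, the somatic cells around the oocyte in the mouse ovary. They were chosen by gene symbol alone, as Rpl or Rps with a number and at most 1 trailing letter a, x or l, plus the stalk genes Rplp0, Rplp1 and Rplp2 and Rpsa. This took 81 of the 50095 rows of the deposited table, 49 for the large (60S) subunit and 32 for the small (40S) subunit. Of these, 5 were listed apart as paralogs (Rps27l, Rps4l, Rpl39l, Rpl10l and Rpl3l), and the other 76 are referred to as the genes without the paralogs. Rows named as pseudogenes were left out by the rule. GENCODE annotates 80 of the 81 as protein coding and the other, Rps4l, as a transcribed processed pseudogene, that is, a transcribed retrocopy.

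The series compares 4 libraries labelled WT, of genotype Ezh2flox/+; Cyp19-Cre, with 3 labelled KO, of genotype Ezh2flox/flox; Cyp19-Cre. All came from females of 3 weeks that were injected with 5 IU of pregnant mare serum gonadotropin and, 48 h afterwards, 5 IU of human chorionic gonadotropin. Both groups thus carried Cre, driven by the aromatase (Cyp19) promoter, which limits the deletion to cells that use it, and the WT group carried a floxed allele. The labels give neither the time of collection after the last injection nor the animals behind each library, so p-values measure the spread between these libraries, which may be technical. WT4 has the treatment label of the KO group but the title and genotype of WT, and was kept as WT. WT and KO mean throughout the libraries so labelled. Levels are in FPKM, a fragment number scaled to transcript length and library size, and are given as mean ± SD over n = 4 WT and n = 3 KO libraries.

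A ribosome is built from a small subunit, which reads the mRNA, and a large subunit, which joins the amino acids. Each ribosomal protein is encoded in most cases by a single active gene, and the proteins are needed in near equal numbers, so their genes are known for being expressed together. Their mRNAs begin with a run of pyrimidines, the 5′ terminal oligopyrimidine (TOP) tract, through which the kinase complex mTORC1 and the binding protein Larp1 control their translation. The ovulatory signal turns granulosa cells into luteal cells, which grow and produce steroids.

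Promoters of 6 members are shown, 4 with and 2 without letters known from ribosomal protein promoters. Rpl15 is a called gene, Rpl12 and Rps25 are among the steadiest between libraries, Rpl41 and Rps27 are among the most abundant, and Rps4x is the partner of the called paralog Rps4l. Each line holds 90 bases before and 10 from the annotated start on, from RefSeq (GRCm38.p6), 5′ to 3′ on the gene's strand. Capitals, absent from Rpl12 and Rps4x, mark the core CCGGAAG bound by ETS family factors, the core AAGATGGC bound by YY1 and runs of at least 8 C or T within 20 bases of the start. The windows are chr14:18270977-18271076 (minus strand) for Rpl15, chr9:44407624-44407723 (plus strand) for Rps25, chr3:90213639-90213738 (minus strand) for Rps27, chr10:128549159-128549258 (minus strand) for Rpl41, chr2:32961622-32961721 (plus strand) for Rpl12 and chrX:102189382-102189481 (minus strand) for Rps4x.
Rpl15: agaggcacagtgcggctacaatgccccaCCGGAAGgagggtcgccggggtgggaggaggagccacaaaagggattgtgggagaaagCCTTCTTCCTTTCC
Rps25: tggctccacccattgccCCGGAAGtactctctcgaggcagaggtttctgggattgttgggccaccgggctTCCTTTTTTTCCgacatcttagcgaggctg
Rps27: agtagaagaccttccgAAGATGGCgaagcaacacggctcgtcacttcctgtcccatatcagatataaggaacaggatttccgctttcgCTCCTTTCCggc
Rpl41: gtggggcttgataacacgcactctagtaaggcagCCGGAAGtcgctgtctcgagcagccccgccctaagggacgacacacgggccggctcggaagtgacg
Rpl12: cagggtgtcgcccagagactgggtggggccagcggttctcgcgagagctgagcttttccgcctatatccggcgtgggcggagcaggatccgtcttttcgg
Rps4x: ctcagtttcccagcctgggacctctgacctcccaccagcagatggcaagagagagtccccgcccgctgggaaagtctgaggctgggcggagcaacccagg

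RefSeq windows of 250 bases before to 50 after the start were matched for 60 of the 81 members, 72 windows in all, since 10 members have several starts. CCGGAAG was present on either strand in 36.1% of these windows and in 11.6% of 21262 windows of protein-coding genes. Counted by gene, 25 of the 60 members held it in some window, 41.7%, against 12.9% of 17491 protein-coding genes. AAGATGGC was present on either strand in 9.72% of member windows against 3.05%, and in 5 of the 60 members, 8.33%, against 3.57% of genes, since 3 of its 7 windows belong to Rpl35a. The TATA box letters TATAAA were present on either strand in 8.33% of member windows against 12.6%, and in 6 members. A run of at least 8 C or T on the coding strand within 20 bases either side of the start was present in 41.7% of member windows against 15.8%, and in 29 members, 48.3%, against 18.3% of genes. The motifs share no bases with one another in the printed windows. These matches describe letters and are not shown to be binding sites.

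The ribosomal protein genes were among the most abundant transcripts of the granulosa cells. The 76 genes without the paralogs had WT means from 60.2 to 899.7 FPKM with a median of 407 FPKM, while the median over the 13850 genes tested was 7.64 FPKM. A WT mean of at least 100 FPKM was reached by 74 of the 76, of at least 200 FPKM by 70 and of at least 500 FPKM by 33. Members made up 40 of the 100 most abundant genes of the table and 74 of the 500 most abundant. The 2 under 100 FPKM were Rps20 and Rpl21, and Rpl17, Rpl29, Rpl22 and Rps15a lay between 100 and 200 FPKM. The 76 genes lie on 19 chromosomes, 4 of them (Rps4x, Rpl10, Rpl36a and Rpl39) on the X chromosome. Their rank order by level was much the same in every library, with Spearman correlations of 0.938 to 0.989 over the 76 genes in the 21 pairs of libraries, which share transcript lengths and copy number.

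**Figure D1:**
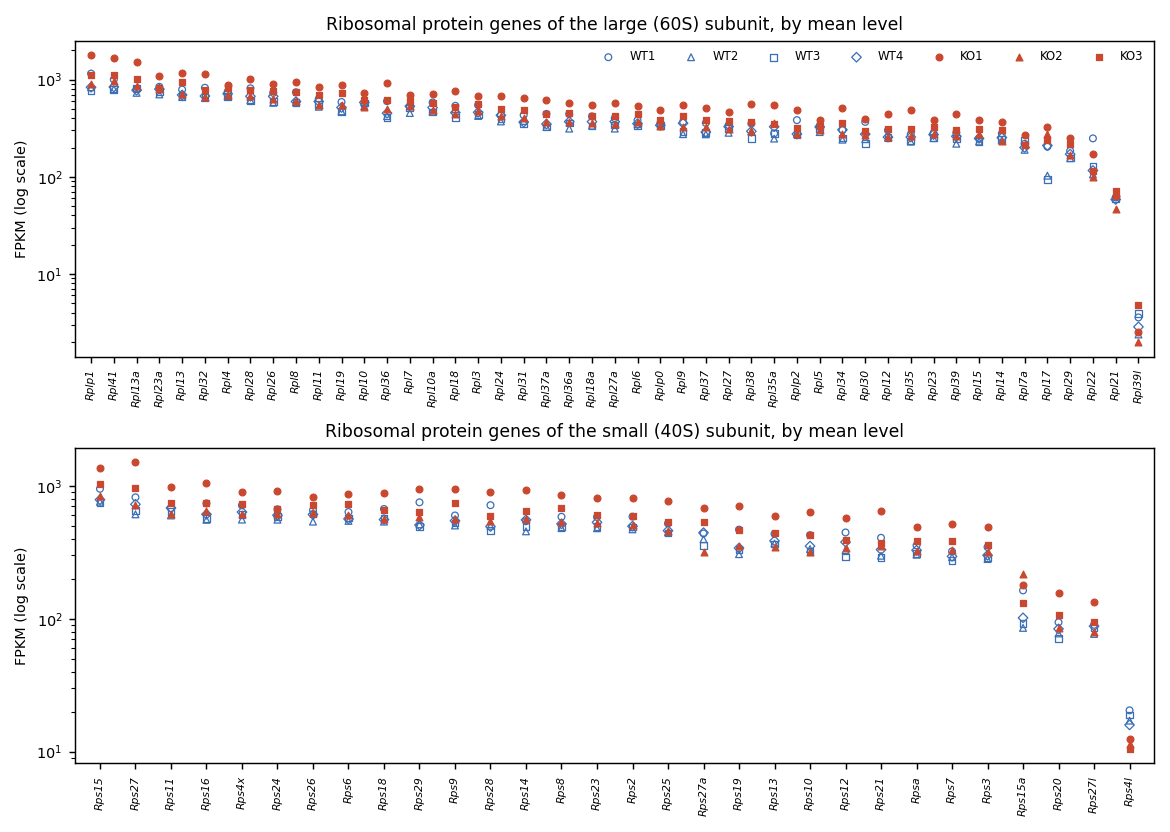
Level of the ribosomal protein genes with a mean above 1 FPKM, all but 2 of the 79, in each of the 7 libraries, in FPKM on a log axis, ordered by mean within the large (upper panel) and small (lower panel) subunit. Open blue symbols are WT and filled red symbols are KO libraries; the circles of KO1 lie at the top for all genes without the paralogs but Rpl22, Rps15a and Rpl21.

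The most abundant member was Rplp1, a stalk protein that recruits elongation factors to the ribosome, with 1154.5, 835, 774 and 835 FPKM in the libraries WT1 to WT4 and 1789.5, 911 and 1111 FPKM in KO1 to KO3. KO1 was the highest, and WT1 exceeded KO3 and KO2. Rpl41, a very short basic protein, stood at 1002, 798, 796 and 841 FPKM in WT and 1689, 959.6 and 1116 FPKM in KO. WT1 lay between KO2 and KO3. Rpl13a, a large subunit protein also known in human myeloid cells as a translational repressor after interferon-γ, stood at 799, 731, 819 and 778 FPKM in WT and 1505, 855 and 1013 FPKM in KO. It was the only 1 of the 10 most abundant members whose groups did not overlap, and limma still did not call it (log2 difference 0.48, SE 0.18, adjusted p = 0.0835).

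Rps15, which is needed for export of the small subunit from the nucleus, stood at 949.98, 758, 752 and 786 FPKM in WT and 1354, 833 and 1033 FPKM in KO. Rps27, a zinc finger protein of the small subunit, stood at 819.8, 610.2, 654 and 726 FPKM in WT and 1511, 723 and 964 FPKM in KO. For both, KO2 lay within the WT range and KO1 above every other library. Of the others among the 10 most abundant, Rpl23a at the exit tunnel, Rpl4, whose loop lines that tunnel, Rpl13 and Rpl32 had WT means from 701 to 776 FPKM and KO means from 797 to 939.9 FPKM. Their log2 differences were 0.21, 0.17, 0.39 and 0.27 in that order, and limma called none of the 10 (adjusted p from 0.0835 to 0.317).

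**Figure D2:**
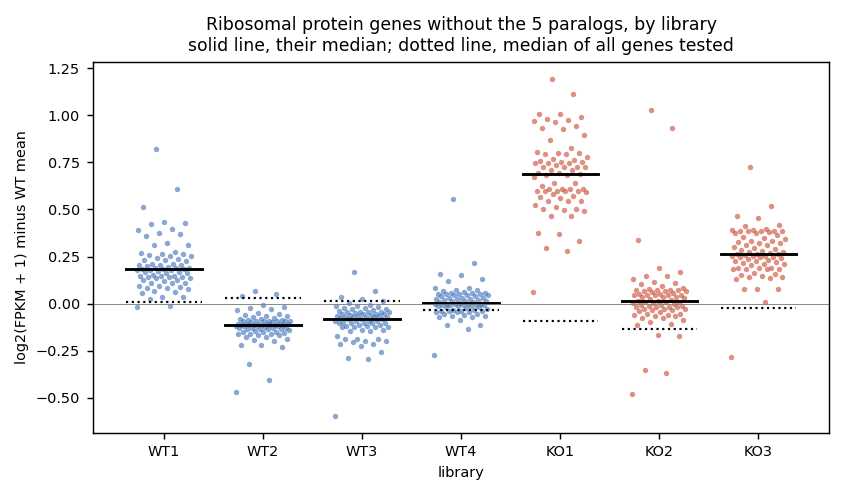
Difference of each of the 76 ribosomal protein genes without the paralogs from its WT mean, in log2(FPKM + 1), by library, 1 point per gene, blue for WT and red for KO. The solid line is the median of these genes and the dotted line the median of all genes tested; KO1 stands highest, KO2 near 0 and WT1 highest among WT.

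The KO libraries spread widely and reached into the WT range. Taken per library as the difference in log2(FPKM + 1) from the WT mean, the median of the 79 members tested was 0.18, -0.11, -0.079 and -7.27e-05 in WT1 to WT4 and 0.69, 0.010 and 0.26 in KO1 to KO3. KO1 was far above the rest, KO3 was moderately high, and KO2 stood below WT1. Over all genes tested the same medians lay between -0.036 and 0.028 in WT and between -0.14 and -0.024 in KO. KO1 was the highest of all libraries for 73 of the 76 genes without the paralogs and lay above every WT library for 75, all but Rpl22. KO3 lay above every WT library for 56 and KO2 for 7. KO2 lay within the WT range for 61 and was the lowest KO library for 72. Among WT libraries WT1 was the highest for 64. For these single-library counts no share over all genes tested was worked out. The FPKM of the whole table also summed highest in KO1 (450102) and, among WT libraries, in WT1 (390185).

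The summed FPKM of the 81 members was 38979, 31222, 31824 and 34006 in WT1 to WT4 and 55064, 34339 and 40874 in KO1 to KO3. As a share of all FPKM this was 9.99%, 8.39%, 8.50% and 8.94% in WT and 12.2%, 8.57% and 9.87% in KO. The groups overlapped, with WT1 above KO2 and KO3. The difference of the group means, 1.27 percentage points, was 0.27 without KO1 and 2.10 without KO2. No p is given for these sums, which run over chosen genes. The FPKM of the whole table summed to 379279 ± 8076 for WT and 421616 ± 25603 for KO, with no overlap (two-sided exact permutation p = 0.0286, the smallest that 35 splits allow), so the members' FPKM is not a fixed share of a fixed total.

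Markers of other cells and mitochondrial RNA also differed between the groups, and their part in the result was not tested. The summed level of 6 erythroid markers was 2674, 1051, 1439 and 1348 FPKM in WT1 to WT4 and 4771, 3021 and 3622 FPKM in KO1 to KO3. It was highest in WT1 and KO1 within their groups, as the members were, and limma called 5 of the 5 tested higher. Beside this and the counts that follow, 7.91% of all genes tested were called higher and 16.7% lower. Of 14 macrophage markers 12 were tested and 11 were higher, with sums of 26.4 to 47.8 FPKM in WT and 72.7 to 156 FPKM in KO. Of 10 endothelial markers 8 were tested and 8 were higher, with sums of 10.8 to 23.8 and 44.4 to 63.2 FPKM. Of 7 smooth muscle markers 4 were higher (56.7 to 102 and 126 to 352 FPKM), as were 7 of 7 epithelial markers (27.3 to 36.9 and 58.4 to 121 FPKM) and 1 of 9 oocyte markers (395 to 674 and 586 to 693 FPKM). Within WT, the endothelial, smooth muscle and epithelial sums were highest in WT2, where the members were lowest. Within KO, these sums were highest in KO1 and lowest in KO2, as the members were. Macrophage and oocyte sums were highest in WT1 within WT and in KO3 within KO. None of these markers was at 0 in all libraries. The list of 11 granulosa markers includes Foxl2, Fshr and Amh, named here whether called or not. All 11 were tested and 5 were lower. Their sums were 4376, 6112, 5273 and 5056 FPKM in WT1 to WT4 and 2890.2, 4080 and 3622 FPKM in KO1 to KO3. Within each group these sums ran in the reverse order of the members' share of FPKM. Mitochondrially encoded genes held 14.7% to 15.8% of FPKM in WT, with the lowest share in WT1, and 17.2% to 19.1% in KO, with the highest in KO1. The targeted gene, Ezh2, stood at 20.5, 23.4, 25.2 and 25.3 FPKM in WT and 20.03, 17.8 and 26.15 FPKM in KO, so it did not separate the groups (limma adjusted p = 0.432), although a whole-gene value also takes fragments from exons outside a deletion. In bulk samples fewer cells of a type and less RNA per cell cannot be told apart.

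Tested gene by gene with limma on log2(FPKM + 1), few members differed between the groups. Of the 79 members with a mean of at least 1 FPKM, 2 were higher in KO, Rpl17 and Rpl15, and 1 was lower, Rps4l, at an adjusted p under 0.05. Over all 13850 genes tested 7.91% were called higher and 16.7% lower, together 24.6%. The members' share of calls thus lay under that of the table in both directions, and in the shortest 20% of genes by transcript length 11.7% were called higher and 6.39% lower. Before adjustment 23 members, 29.1% of those tested, had a p under 0.05, against 40% of all genes. Every KO library lay above every WT library for 6 members (Rpl13a, Rps14, Rps7, Rpl35a, Rpl15 and Rpl17), against 11.5% of all genes tested, and below for 1, against 24.8%.

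In spite of the few calls, 75 of the 79 differences were above 0, while 40.7% of all genes tested were. Members moved together within a library, so the 75 are not independent. The pooled SD of the library medians of members was 0.24. The median log2 difference of members was 0.30 (quartiles 0.24 and 0.40), against -0.081 over all genes tested. Scaling every library to the same FPKM sum moved the median of all genes to -0.21 and that of the members to 0.15. Measured relative to the median of all genes, the members stood 0.38 higher, and 0.36 to 0.40 higher under the 4 other scalings. This distance was 0.21 without KO1 and 0.51 without KO2. Single libraries moved the calls. Members called higher by limma numbered 0 without KO1, KO3, WT2 or WT3 (6 to 10 members at an unadjusted p under 0.05), where 3.6%, 4.38%, 6.03% and 4.64% of all genes were called higher. They numbered 1 without WT4 (6.53% of all genes), 2 without WT1 (8.32%) and 25 without KO2 (9.49%). The 25 include Rpl41, Rpl13a, Rps15, Rps27 and Rpl13 of the 10 most abundant members.

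Scaling moved the number as well, to 6 with median-of-ratios scaling (11.5% of all genes), 5 with upper-quartile scaling (10.3%) and 1 with an equal sum over all genes (6.19%) or over genes other than the members (6.38%). It was 1 without the 20 most abundant genes (7.85%) and 0 with no filter on low values (2.24%, with 9 members at an unadjusted p under 0.05). With a minimum mean of 5 FPKM it was 3 (7.98%).

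The members are short, with a median longest transcript of 1059 bp against 3133.5 bp over all genes tested, and 57 of the 79 belong to the shortest 20% of genes, up to 1569 bp. That whole class had a median log2 difference of 0.088. By library its median lay 0.097, -0.021, -0.036 and -0.034 from the WT mean in WT1 to WT4 and 0.21, -0.050 and 0.13 in KO1 to KO3, so KO1 and WT1 were again the highest of their groups. With the trend on transcript length removed from each library, the members' median was 0.24 and that of all genes 0.0036, and Rpl15 and Rps4l were still called but Rpl17 was not (adjusted p = 0.0615). Rpl35a was called in its place (log2 0.62, limma adjusted p = 0.0411; 12.1% of all genes were called higher in that fit), while it was just past the threshold without that step (adjusted p = 0.0518).

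**Figure D3:**
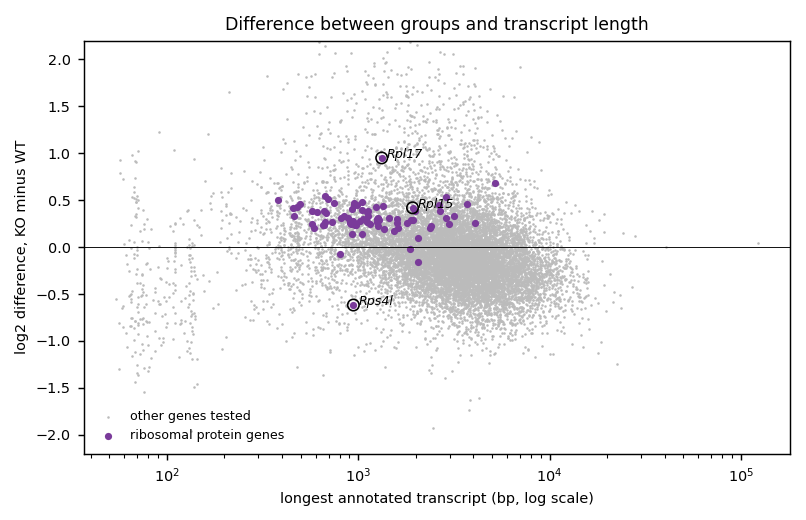
Log2 difference between KO and WT, on log2(FPKM + 1), against the longest annotated transcript in bp (log axis), for each gene tested that has an annotated length; the vertical axis ends at 2.2 either way. Ribosomal protein genes (purple) lie on the left with quartiles of 0.24 and 0.40, Rpl17 above and Rps4l below them.

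The values of both subunits lay close together. The 40S members without paralogs differed by a median log2 of 0.31 (from 0.21 to 0.69) and the 60S members by 0.30 (from -0.16 to 0.95). By library the medians were 0.19, -0.11, -0.087 and -0.0019 for 40S and 0.18, -0.11, -0.078 and 0.011 for 60S in WT1 to WT4. In KO1 to KO3 they were 0.72, 0.023 and 0.26 for 40S and 0.66, 0.0057 and 0.27 for 60S. The summed FPKM of 60S over that of 40S members was 1.31, 1.34, 1.34 and 1.34 in WT and 1.30, 1.34 and 1.33 in KO, with the lowest ratios in KO1 and WT1, the libraries of highest member share. Of the 47 tested 60S members 2 were called, both higher, and of the 32 tested 40S members 1, lower, beside 7.91% and 16.7% of all genes. Without KO2 the calls were 16 and 10, all higher but that of Rps4l, a 40S member. In that fit 9.49% of all genes were called higher and 13.4% lower.

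The members that varied least around the common level depended on how that level was set. After centring each library on the median level of members, the SD over the 7 libraries on the log2 scale had a median of 0.11. It was 0.035 for Rpl12, which forms the base of the stalk, 0.046 for Rps25 and 0.0535 for Rps10. After centring on the median deviation from the WT mean, tried after the data were seen, the median SD was 0.081, and the values were 0.039, 0.043 and 0.104 for these 3 genes. The lowest included 0.023 for Rps3 and 0.027 for Rps2, so Rps10 was not among the steadiest. Rpl12 stood at 301, 252, 252 and 256 FPKM in WT and 439, 258 and 311 FPKM in KO. Rps25, known for its part in internal initiation, stood at 521, 446, 441 and 459.9 FPKM in WT and 764, 453 and 532 FPKM in KO. For both, KO1 was highest and KO2 within the WT range, and limma called neither (log2 0.31 and 0.29, adjusted p = 0.209 and 0.242). Rps10 stood at 426, 335, 322 and 352 FPKM in WT and 634, 316 and 428 FPKM in KO, where KO2 was the lowest of all libraries (adjusted p = 0.310).

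Rpl15, a large subunit protein needed early in 60S assembly (ENSMUSG00000012405, GRCm38 chromosome 14, 18267823 to 18271391, minus strand), was higher in KO. It stood at 250.2, 231, 229 and 248 FPKM in WT and 385, 273 and 313 FPKM in KO. Every KO library lay above every WT library. The log2 difference was 0.42 (SE 0.13, 95% interval 0.13 to 0.71, limma adjusted p = 0.0413). The call was lost when any library but KO2 was left out (adjusted p from 0.0547 to 0.112). The span of Rpl15 overlaps the gene Nkiras1 on the opposite strand, which stood at 8.43 to 11.8 FPKM. The kit is not stated to keep strand, so reads in the overlap cannot be assigned.

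Rpl17, which lies by the exit of the peptide tunnel (ENSMUSG00000062328, chromosome 18, 74998558 to 75003381, plus strand), had the largest rise. It stood at 204, 103, 94.0 and 210.04 FPKM in WT and 328, 273 and 236 FPKM in KO. WT split into a low pair, WT2 and WT3, and a high pair, WT1 and WT4, and every KO library lay above them all. The log2 difference was 0.95 (SE 0.30, 95% interval 0.28 to 1.62, limma adjusted p = 0.0452). It was not called without WT2, WT3, KO1, KO2 or KO3 (adjusted p from 0.0751 to 0.146).

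The table also holds rows named as pseudogenes of Rpl17. How reads that match both were counted is not given in the sources used here, and their part in the values of Rpl17 was not tested. The 6 rows named as its pseudogenes summed to 568, 466, 541 and 457 FPKM in WT and 603, 326 and 524 FPKM in KO, 241% of Rpl17 itself on average. The largest of these rows, Rpl17-ps10, stood at 208, 283, 285 and 232 FPKM in WT and 269.5, 145 and 249 FPKM in KO. It was highest in WT2 and WT3, where Rpl17 was lowest. The next rows did not mirror Rpl17 in this way. Rpl17-ps8 stood at 219, 153, 96.4 and 120.04 FPKM in WT and 145, 107 and 152 FPKM in KO, highest in WT1 and lowest in WT3. Rpl17-ps5 stood at 139.8, 27.8, 145 and 102 FPKM in WT and 156, 70.8 and 102 FPKM in KO. Summed with its copies, Rpl17 stood at 772, 569, 635 and 667 FPKM in WT and 931, 599 and 761 FPKM in KO. The groups of this sum overlap, and its log2 difference was 0.19 (SE 0.17, 95% interval -0.19 to 0.57, limma adjusted p = 0.410). Its highest WT value was 1.36 times the lowest, against 2.23 times for Rpl17 alone. Of the 40 members with a copy of at least 1 FPKM, this WT range was narrower with the copies for 21 and wider for 19, among them Rpl15 (1.09 alone and 1.52 with copies).

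**Figure D4:**
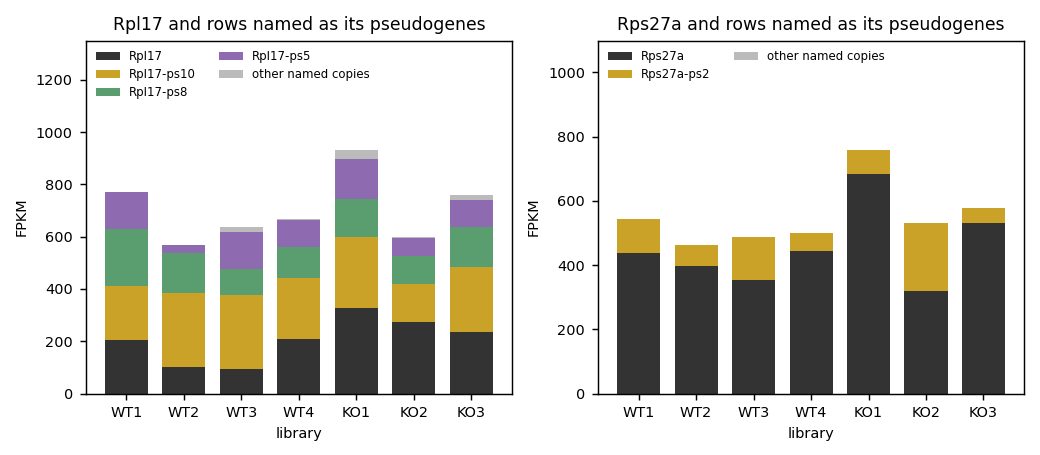
FPKM of Rpl17 (left) and Rps27a (right) in each library as stacked bars, with the rows named as their pseudogenes on top. The dark part is the member itself; Rpl17 was lowest in WT2 and WT3, where Rpl17-ps10 but not Rpl17-ps8 was highest, and Rps27a was lowest in KO2, where Rps27a-ps2 was highest.

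Copies held much of the signal of some other members too. Rows named as pseudogenes of members numbered 250 over 57 members, of which 87 rows had a mean of at least 1 FPKM. For 14 members they summed to at least 20% of the member's own level and for 3 to more than that level. These were Rpl21 (552%), Rpl17 and Rps12 (123%). Rpl21 stood at 58.3 to 62.3 FPKM in WT and 62.9, 46.4 and 72.0 FPKM in KO, while Rpl21-ps15 alone stood at 241 to 301 FPKM in WT and 409, 268 and 314 FPKM in KO. Rps27a, a fusion of ubiquitin and a small subunit protein, was chosen after its values were seen. It stood at 438, 396, 353 and 444 FPKM in WT and 684, 318 and 530.3 FPKM in KO, and was lowest in KO2, where its copy Rps27a-ps2 was highest at 212 FPKM, against 47.5 to 135 FPKM elsewhere. With its copies, Rps27a in KO2 stood at 529.5 FPKM, inside the WT range of 462 to 543 FPKM.

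Over all pseudogene rows of ribosomal proteins the summed FPKM was 9.33% to 10.3% of that of the members in each library, a narrow range. With each member summed with its copies, 0 members were called higher and 1 lower by limma (8.07% of all genes higher; 22 members at an unadjusted p under 0.05), and the median log2 difference of members was 0.30. Rpl15 was then not called (adjusted p = 0.137). Its copy Rpl15-ps3 stood at 115, 12.9, 11.1 and 25.4 FPKM in WT and 90.03, 44.1 and 14.6 FPKM in KO. This sum was tried after the data were seen.

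Rps15a and Rpl22 departed from the pattern in single libraries. Rps15a, a small subunit protein, stood at 163, 85.3, 91.9 and 102 FPKM in WT and 180.3, 219 and 131 FPKM in KO, and was the only 1 of the 76 genes with its highest value in KO2. Its log2 difference was 0.69 (SE 0.24, adjusted p = 0.0653 by limma), and it was called without WT1 (0.89, adjusted p = 0.0154). Rpl22, an RNA-binding large subunit protein looked up after its values were seen, stood at 248, 106, 127 and 116 FPKM in WT and 170.1, 99.99 and 115 FPKM in KO. WT1 was the highest library, and Rpl22 was the only 1 of the 76 genes of which this was true.

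The paralogs stood well below their partners, and only Rps4l separated the groups in the test. Rps4l (ENSMUSG00000063171, chromosome 6, 148354656 to 148355598, plus strand), named for its likeness to Rps4x, stood at 20.5, 17.1, 18.9 and 15.9 FPKM in WT and 12.4, 11.4 and 10.45 FPKM in KO. All KO libraries lay below all WT libraries. The log2 difference was -0.62 (SE 0.11, 95% interval -0.86 to -0.37, limma adjusted p = 0.00816), and Rps4l was called lower under every alternative run, each library left out in turn included. Its partner Rps4x, the X-linked gene, stood at 713, 557, 605 and 635 FPKM in WT and 893, 619 and 729.9 FPKM in KO and was not called (log2 0.24, adjusted p = 0.257). Rps4l lies within the span of Tmtc1 on the opposite strand, which stood at 6.81 to 7.60 FPKM in WT and 6.01 to 7.06 FPKM in KO. How reads that match both Rps4l and Rps4x were counted is not given in the sources used here.

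Rps27l, a paralog of Rps27 known as a target of p53, followed the common pattern at 89.96, 76.8, 85.9 and 87.9 FPKM in WT and 135, 79.9 and 95.1 FPKM in KO. KO1 and KO3 lay above WT and KO2 within it (log2 0.24, SE 0.16, limma adjusted p = 0.287). Rpl39l, known from the testis, stood at 3.56, 2.38, 3.93 and 2.85 FPKM in WT and 2.51, 1.98 and 4.77 FPKM in KO, beside 219 to 438 FPKM for Rpl39. Its groups overlapped (log2 -0.076, 95% interval -0.59 to 0.44, adjusted p = 0.826).

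Rpl10l and Rpl3l had means under 1 FPKM and were not tested. Rpl10l, which replaces the X-linked Rpl10 in male meiosis, stood at 0.380, 0.248, 0.354 and 0.339 FPKM in WT and 0.0266, 0.150 and 0.0975 FPKM in KO, with no overlap. It was called lower, with Rps4l, where no filter on low values was used. Rpl3l, the muscle and heart form of Rpl3, was listed at 0 in WT1, WT4, KO1 and KO3 and stood at 0.157, 0.0508 and 0.0314 FPKM in WT2, WT3 and KO2. Rpl10 and Rpl3 stood at 527 to 727 and 423 to 685 FPKM over the 7 libraries.

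**Figure D5:**
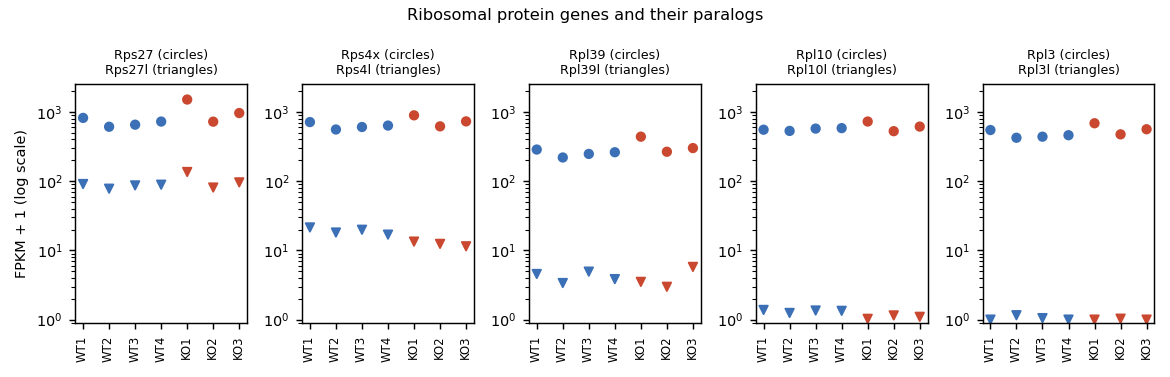
FPKM + 1 on a log axis in each library for 5 ribosomal protein genes (circles) and their paralogs (triangles), WT in blue and KO in red. Rps4l alone among the tested paralogs has all 3 KO libraries below all 4 WT libraries.

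Genes for ribosomal proteins that the symbol rule leaves out had a like median. Of 7 such genes 1 was called higher and 0 lower, beside 7.91% and 16.7% of all genes, with a median log2 difference of 0.30. The called gene was Fau, which encodes a small subunit protein fused to a ubiquitin-like protein, at 417, 326, 339 and 344 FPKM in WT and 651, 408 and 509.8 FPKM in KO (log2 0.53, SE 0.17, limma adjusted p = 0.0448). WT1 lay just above KO2. Among those not called were Rps3a1 (651 ± 57.6 and 841 ± 153 FPKM), Gnb2l1, now named Rack1, a scaffold on the small subunit (497 ± 36.1 and 580.2 ± 70.5), Rpl36al (195 ± 23.2 and 229 ± 44.6), Rpl22l1 (53.1 ± 7.04 and 80.3 ± 28.4) and Rpl7l1 (21.8 ± 0.933 and 23.3 ± 2.96). Their log2 differences were 0.36, 0.22, 0.22, 0.54 and 0.08 in that order.

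Genes for factors that act on the ribosome had smaller median differences. Of 6 elongation factor genes limma called 0, and 0 had an unadjusted p under 0.05 (median log2 0.15). Eef1a1, which brings aminoacyl-tRNA, stood at 2657 ± 194 and 2975 ± 212 FPKM and Eef2, the translocase, at 534 ± 15.97 and 594 ± 34.8 FPKM (adjusted p = 0.398 and 0.281). Of 30 initiation factor genes 0 were higher and 3 lower (median 0.083), beside 7.91% and 16.7% of all genes. Eif4a2, an RNA helicase, fell from 187, 237, 229 and 219.8 FPKM in WT to 105, 140.4 and 115 FPKM in KO (log2 -0.86, SE 0.13, adjusted p = 0.00542). The scaffolds Eif4g1 (88.5 ± 4.39 and 63.9 ± 6.19 FPKM) and Eif4g3 (22.2 ± 1.34 and 18.1 ± 0.787 FPKM) fell as well. KO libraries lay below WT libraries for all 3. With the length trend removed Eif4a2 was still lower (adjusted p = 0.00829), while Eif4g1 and Eif4g3 were not called (adjusted p = 0.0531 and 0.777).

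Of 57 ribosome biogenesis genes 2 were higher and 7 lower (median -0.080), beside 7.91% and 16.7% of all genes. Polr1a, the catalytic subunit of RNA polymerase I, which transcribes ribosomal RNA, fell from 16.9, 19.2, 18.7 and 17.6 to 10.4, 12.03 and 13.1 FPKM (log2 -0.58, SE 0.10, limma adjusted p = 0.00775). The groups did not overlap. Nop56, of the particle that methylates ribosomal RNA, fell from 119 ± 8.12 to 85.2 ± 11.8 FPKM, and Mdn1, a remodeller of the large subunit precursor, from 10.8 ± 1.71 to 6.83 ± 1.42 FPKM. Imp3, of the small subunit processome, rose from 23.7 ± 2.36 to 32.7 ± 2.81 FPKM. With the length trend removed Polr1a and Imp3 kept their calls (limma adjusted p = 0.0184 and 0.0227), and Nop56 and Mdn1 did not (0.0631 and 0.127).

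Of 12 genes of the mTORC1 and TOP pathway 0 were higher and 5 lower (median -0.32), beside 16.7% of all genes lower. With the length trend removed 0 were lower and 1 higher, beside 10.3% and 12.1% of all genes, and none of the falls named here was called (limma adjusted p from 0.0541 to 0.289). Larp1, which binds the TOP tract, fell from 17.9, 19.5, 19.5 and 17.7 to 12.7, 13.5 and 15.5 FPKM (log2 -0.40, SE 0.10, limma adjusted p = 0.0197). The groups did not overlap. The kinase gene Mtor fell from 6.94 ± 0.718 to 5.09 ± 0.522 FPKM, Tsc1, an inhibitor of mTORC1, from 6.59 ± 0.556 to 4.40 ± 0.521 FPKM and Eif4ebp2, a translational repressor that mTORC1 inactivates, from 21.2 ± 1.58 to 15.3 ± 1.02 FPKM. Of 6 ribosome-associated genes 1 was higher, the TOP mRNA Tpt1 (1138 ± 119 and 1648 ± 324 FPKM), and 1 lower, the chaperone Hspa14 (26.5 ± 2.197 and 21.3 ± 0.121 FPKM). Beside these counts, 7.91% of all genes were higher and 16.7% lower. Of 7 genes for factors of these promoters limma called 0 and 1 had an unadjusted p under 0.05 (median -0.045), among them Myc at 37.3 ± 4.55 and 38.2 ± 5.03 FPKM and Max at 33.8 ± 1.44 and 35.6 ± 3.21 FPKM.

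Mitochondrial ribosomal protein genes, taken by symbol, encode another ribosome. Of 77 tested 2 were higher and 0 lower, with a median log2 difference of 0.022. By library their median lay 0.22 from the WT mean in KO1, -0.21 in KO2 and 0.12 in KO3, against 0.69, 0.010 and 0.26 for the cytosolic genes. Mrpl53 (11.5 ± 2.74 and 19.99 ± 1.82 FPKM) and Mrpl54 (25.9 ± 1.77 and 39.1 ± 11.2 FPKM) were those called. Over all 8 lists of this kind, 202 genes tested, 6 were called higher and 16 lower, 2.97% and 7.92%, under the 7.91% and 16.7% of all genes. These counts moved with scaling, as those of all genes did. They were 3 higher and 49 lower with an equal sum of FPKM, where 6.19% and 28.4% of all genes were called, and 18 and 6 with median-of-ratios scaling, where 11.5% and 10.7% were. With the length trend removed they were 10 and 3, beside 12.1% and 10.3% of all genes. Without KO1 they were 0 and 4 and without KO2 20 and 8, and without WT2, WT3, WT4 or KO3 they were 1 to 3 and 6 to 10. Of the 22 genes called, 4 kept their call with each of the 7 libraries left out in turn, namely Polr1a, Eif4a2, Eif4g1 and Eif4ebp2. Of these 4, Eif4g1 and Eif4ebp2 lost it with the length trend removed (limma adjusted p = 0.0531 and 0.113). Mrpl53 kept it in 6 of the 7 fits. Nop56, Tsc1 and Larp1 kept it in 5, Imp3 in 4, Fau, Tpt1 and Mdn1 in 2, and Eif4g3, Mtor, Hspa14 and Mrpl54 in 1.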

How the data were processed

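The values are FPKM deposited by the authors in a single table, with 1 column per library. No label names the unit, which was inferred from the values. The labels' protocols describe poly(A) selection, fragments of about 200 bp and paired reads of 150 bp. Software named in the submitters' processing notes is HISAT2, HTSeq 0.12.4, FastQC, Trimmomatic, edgeR and DESeq2, and the build is mm10. The step each served, and how reads shared between a gene and its copies were treated, is not given in the sources used here. Library depth is unknown: at best 7.36% to 10.6% of low values lay within 0.02 of a whole number of fragments, so counts were not recovered and no count test was run.

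The 13850 genes whose mean over the 7 libraries reached 1 FPKM entered a limma fit (version 3.58.1, R 4.3.3) on log2(FPKM + 1) with an intensity-dependent prior variance (trend), a scale that understates changes of low genes. Benjamini-Hochberg adjustment ran over all of them. Adjusted p-values and 95% intervals are from limma. The scripts were tested on simulated data. Positions and transcript lengths come from GENCODE vM21 (GRCm38), promoters from RefSeq. Symbols are those of the table, and 4 listed genes were found by identifier under an older symbol.

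Members and lists were chosen with earlier results of these data known. Genes are named by rule: the 10 members of highest mean, called members, paralogs, untested members, the 3 steadiest (by the median level of members) and 3 most variable members, all ribosomal protein genes outside the symbol rule, and up to 4 called genes per other list or else the 2 of highest mean. For 2 genes that this rule takes, values are not reported here. Marker lists are given as counts. Alternatives were other scalings, pseudocounts and filters, removal of the length trend or of the 20 most abundant genes, a replicate block and each library left out.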

Additional observations from a re-analysis of the deposited data

Results flagged for a closer look

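Dixon's test on the 4 WT libraries set apart 8 members, in each case with WT1 as the high library. Chance gives about 1 in 20 groups, 83 values were tested, and members move together, so the 8 are not independent. WT1 stood at 1154.5 FPKM for Rplp1, 740.6 for Rpl8, 751 for Rps29, 715 for Rps28, 358 for Rpl37, 383 for Rplp2, 301 for Rpl12 and 248 for Rpl22. In the other 3 WT libraries these genes lay between 774 and 835, 581 and 594, 494 and 513, 460.3 and 500.04, 273 and 288, 273 and 276, 252 and 256, and 106 and 127 FPKM in that order. KO1 exceeded WT1 for all but Rpl22.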

How the results depend on the processing

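The median log2 difference of members kept its direction under every alternative run, from 0.12 without KO1 to 0.45 without KO2. The difference in their share of FPKM was 0.27 percentage points without KO1 and 2.10 without KO2. Scaling a library cannot change this share, so the scalings do not test it. Calls depended on the setting. Members called higher, 2 as reported, by limma numbered 0 with no filter on low values and with members summed with their pseudogene rows (9 and 22 members at an unadjusted p under 0.05), 6 with median-of-ratios and 5 with upper-quartile scaling, 1 with an equal sum of FPKM, over all genes or over genes other than the members, 1 without the 20 most abundant genes, and 0 to 25 with a library left out. With a minimum mean of 5 FPKM, members called higher numbered 3, with 3 calls among 60S members, where 7.98% of all genes were called higher. Members called lower numbered 2 with no filter and 1 otherwise. Calls among 40S members numbered 2 with either of the first 2 scalings and 1 to 10 with a library left out. Among 60S members they numbered 5 and 4 with those scalings, 1 with no filter, with either equal sum and without the 20 most abundant genes, 0 with the pseudogene rows, and 0 to 16 with a library left out. In the other translation lists, 6 genes higher and 16 lower as reported became 1 and 8 with no filter, 18 and 6 with median-of-ratios scaling, 11 and 9 with upper-quartile scaling, 3 and 49 with an equal sum, 3 and 46 with an equal sum over other genes, 10 and 3 with the length trend removed, and 0 to 20 and 4 to 12 with a library left out. The cause of these changes was not tested.

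Replicate numbers are shared between the groups, but same-numbered libraries did not all deviate together (correlations across genes of 0.19, -0.11 and 0.071), and 3 of 6 libraries correlated best with their own number. With the replicate number as a block, 5 members were higher and 1 lower, where 6.65% and 12.6% of all genes were, with 5 calls among 60S members, and 9 genes of the other lists were lower. Rpl15 lost its call in 11 of 18 alternatives and Rpl17 in 8, and Rps4l in 0. With 4 and 3 libraries and unknown depth, small differences may have gone undetected, and no limit of detection was worked out for the members.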
